A study of Rattus norvegicus with 3 samples.

Results

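Tph1, Ddc, Ghrl and Chga are 4 genes of hormone and amine production by the enteroendocrine cells of the gut. They were taken as all probes of the deposited table whose platform gene symbol is one of these names. This gave 5 probes, of 6653 probes in all and of 4379 named genes: Ddc had 2 probes and the other genes 1 each. The samples were jejunal tissue of Sprague-Dawley rats, males of 6 weeks, frozen flat and cut in a cryostat parallel to the surface. Sections of 10 µm were joined by 10 into fractions of 100 µm, counted from the villus tip, with 7 fractions in the column. The top villus sample was fraction 1 (0 to 100 µm), the middle villus sample fraction 4 (300 to 400 µm) and the crypt sample fraction 6 (500 to 600 µm). All 3 parts come from the same strain, sex and age, and the labels name no treatment. Each part had 1 sample, so there is no replicate check, and the number of animals behind a sample is not stated.

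Enteroendocrine cells are scattered hormone-secreting cells of the gut epithelium that arise from crypt stem cells and migrate towards the villus tip. Enterochromaffin cells, the type that stores serotonin, make it from tryptophan. Tryptophan hydroxylase 1 (Tph1) performs the first and rate-limiting step with tetrahydrobiopterin as cofactor, and aromatic L-amino acid decarboxylase (Ddc) converts the product, 5-hydroxytryptophan, to serotonin. Ddc also turns L-dopa into dopamine and is made by absorptive enterocytes as well as by endocrine cells. Ghrl encodes the precursor of ghrelin, an acylated peptide hormone best known from the stomach and made by fewer cells in the small intestine. Chga encodes chromogranin A, a protein of dense-core secretory granules that is used as a general marker of enteroendocrine cells.

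Because the members split into genes that were higher and a gene that was lower at the villus top, the promoter windows of Tph1, Ghrl and Ddc are shown. They were taken from RefSeq on GRCr8 and run from 250 bases before to 50 bases after the annotated start. The Tph1 window lies at chr1:106314579-106314878, the Ghrl window at chr4:148425175-148425474 and the window of the most upstream of 3 annotated Ddc starts at chr14:90682734-90683033, all on the minus strand. Capitals mark the E-box CANNTG, the core recognised by basic helix-loop-helix factors such as those of endocrine differentiation.
Tph1: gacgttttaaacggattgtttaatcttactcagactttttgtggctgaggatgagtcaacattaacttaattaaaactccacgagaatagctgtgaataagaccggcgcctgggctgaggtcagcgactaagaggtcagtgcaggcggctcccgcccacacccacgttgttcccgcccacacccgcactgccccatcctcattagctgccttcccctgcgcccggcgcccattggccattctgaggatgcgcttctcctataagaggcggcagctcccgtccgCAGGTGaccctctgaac
Ghrl: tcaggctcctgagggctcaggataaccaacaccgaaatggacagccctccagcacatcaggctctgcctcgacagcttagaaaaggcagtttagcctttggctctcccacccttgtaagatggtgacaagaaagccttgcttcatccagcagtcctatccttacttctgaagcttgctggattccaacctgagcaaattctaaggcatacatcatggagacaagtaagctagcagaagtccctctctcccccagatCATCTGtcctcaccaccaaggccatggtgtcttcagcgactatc
Ddc: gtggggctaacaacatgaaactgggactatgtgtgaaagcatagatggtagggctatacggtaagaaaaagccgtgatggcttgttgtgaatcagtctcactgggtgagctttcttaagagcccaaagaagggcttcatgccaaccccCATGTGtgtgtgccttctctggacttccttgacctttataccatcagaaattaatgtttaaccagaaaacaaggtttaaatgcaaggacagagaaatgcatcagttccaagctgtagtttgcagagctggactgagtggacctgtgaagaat

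The Tph1 and Ghrl windows each held 1 E-box, starting 34 and 7 bases after the start, and the Ddc window held 1, at position -102. An E-box, a motif that reads as CANNTG on both strands, was found in 72.1% of 33469 RefSeq windows of the same length, so its presence does not set these genes apart. A match in letters is a description and not a binding site, and which Ddc start was in use was not analysed here.

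Values are given as deposited, on a log2 scale, so that a difference of 1 is 2-fold. A value in the lowest 25% of its column counted as dim. That level was 6.05 for crypt, 4.15 for middle villus and 5.15 for top villus, and the column medians were 7.81, 7.83 and 7.57. All 5 member probes lay above it in every part. The labels for the parts were checked against their markers. All 7 crypt proliferation markers compared were lower by 2-fold or more at the top and in the middle than in the crypt, Mki67 by at least 38.4-fold and 76.8-fold. Among all named genes compared 39.5% and 29.5% were lower there. Of 14 enterocyte markers 13 exceeded their crypt level by 2-fold or more in the middle villus, beside 19.1% of all genes. At the top 9 of 13 were higher and 2 lower, beside 23.9% and 39.5% of all genes. The 2 lower were sucrase-isomaltase (Si) by at least 7.98-fold and the glucose transporter Slc2a2 with a log2 difference of -3.78.

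Ddc had by far the widest difference of the 4 genes. Its first probe (A_42_P682435) read 11.33 in crypt, 8.58 in middle villus and 5.61 at the villus top. Its second probe (A_43_P14910) read 12.48, 9.15 and 7.02 in the same order. Both probes were highest in the crypt and lowest at the top, and each step down was of more than 2-fold. On the linear scale the mean level of Ddc was 12.1% of its crypt level in the middle villus and 2.07% at the top. The first probe at the top lay 0.46 above the dim level there, so that its lowest reading is close to the limit of what was counted as measured.

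Tph1 had the opposite order. Its probe (A_43_P15762) read 6.22 in crypt, 6.62 in middle villus and 8.08 at the villus top. The crypt and middle villus readings lay near each other and the top villus reading stood above them. The crypt reading was 0.17 above the dim level, close to the limit of what counted as measured. On the linear scale the crypt held 27.4% and the middle villus 36.2% of the top villus level.

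Ghrl had the same order as Tph1. The first step read larger and the second smaller in Ghrl, but neither was separated from that of Tph1. The Tph1 step minus that of Ghrl was -0.59 and 0.64, or 0.47 and 0.43 times the probe error described below. Under quantile normalization the first step was larger in Tph1, at 1.42 against 0.95. The Ghrl probe (A_43_P12094) read 8.29 in crypt, 9.28 in middle villus and 10.11 at the villus top. The crypt level was 28.2% and the middle villus level 56.2% of that at the top. Chga had the same order over a narrow range. Its probe (A_43_P12087) read 8.24 in crypt, 8.54 in middle villus and 8.68 at the villus top, so that the crypt held 73.9% of the top villus level. In these bulk fractions, fewer cells of a type and less RNA per cell cannot be told apart.

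**Figure D1:**
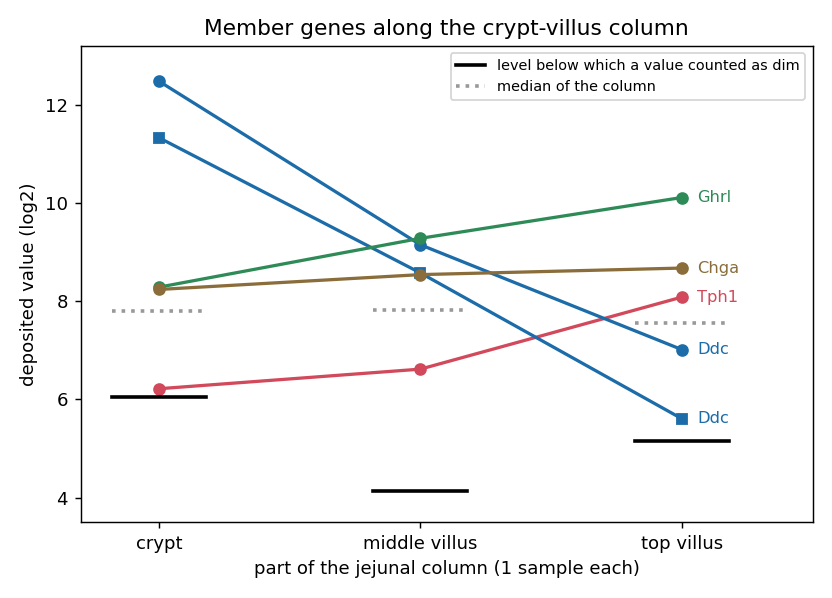
Deposited log2 values of the 5 member probes (vertical axis) in crypt, middle villus and top villus (horizontal axis, 1 sample each), with a line per probe, circles for the A_43 probes and squares for the A_42 probe. Black bars mark the level below which a value counted as dim and grey dots the column median. Both Ddc probes descend from above 11 to 7.02 and 5.61, while Ghrl and Tph1 end higher than they start and Chga goes from 8.24 to 8.68.

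The error available here is how far probes of 1 gene lay apart in their log2 difference. Pooled over genes with several measured probes, this SD was 0.91 between top villus and crypt (206 genes), 0.90 between middle villus and crypt (222 genes) and 1.05 between the 2 villus parts (247 genes). It holds no spread between animals or hybridisations, and no test across samples was possible. For a gene with 2 probes the error of the mean was 0.65, 0.64 and 0.74 in these comparisons.

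Between top villus and crypt, 2 of the 4 genes were higher by 2-fold or more and 1 was lower. Among all 3932 named genes compared, 23.9% were higher and 39.5% lower, so neither count sets the group apart. Tph1 differed by 1.87 (3.64-fold), 2.04 times the probe error. Ghrl differed by 1.83 (3.54-fold), 1.997 times the probe error, and Chga by 0.44 (1.35-fold), well inside it. Ddc differed by -5.59, which is 48.3-fold lower and 8.65 times its error. At least 13 of the 3932 genes had a more negative difference. This is a minimum, since a gene dim at the top enters with a bound: with dim values as deposited 258 of 4370 genes (5.90%) were more negative. The 2 Ddc probes were 0.26 apart in this difference, less than the spread usual between probes of a gene. The median of all genes was -0.39, so that Tph1 stood 2.26 and Ghrl 2.22 above it, and Chga 0.83.

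Between middle villus and crypt, none of the 4 genes was higher by 2-fold or more and 1 was lower, against 19.1% and 29.5% of 3825 genes (24.5% each under quantile normalization). Ghrl, at 0.99 (1.99-fold), fell just short of the limit and was 1.10 times the probe error. Tph1 at 0.40 and Chga at 0.30 were inside the error. Under quantile normalization Tph1 differed by 1.42 in this comparison and by 2.88 between top villus and crypt. Ddc differed by -3.04 (8.23-fold lower), 4.77 times its error.

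Between top and middle villus, 1 gene was higher and 1 lower, against 29.5% and 27.4% of 3768 genes. Tph1 differed by 1.47 (2.76-fold), 1.40 times the probe error. Ghrl at 0.83 and Chga at 0.13 were inside it. Ddc differed by -2.55 (5.86-fold lower), 3.45 times its error, with the probes 0.83 apart. Along the column the neighbouring levels of Tph1 in crypt and middle villus, of Ghrl in middle and top villus, and all levels of Chga therefore lay within the probe spread of each other.

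**Figure D2:**
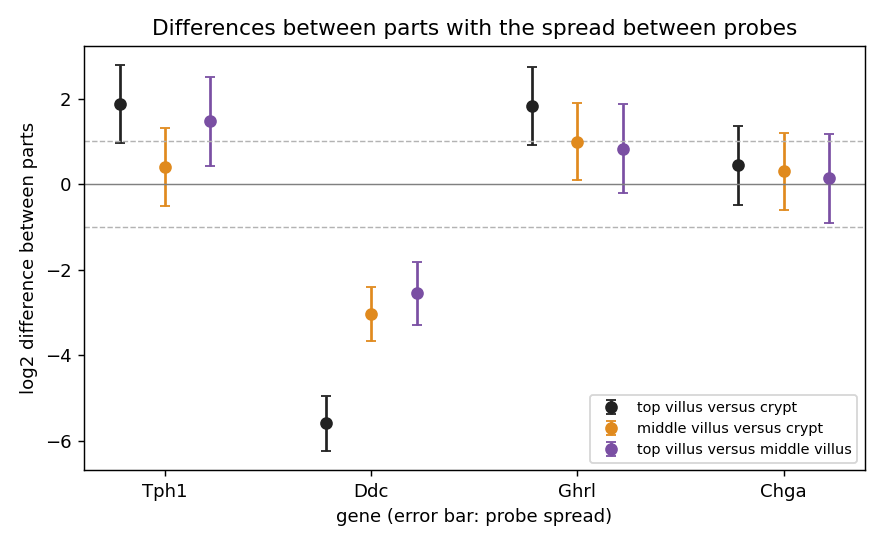
Log2 differences between parts (vertical axis) for the 4 genes (horizontal axis) in the 3 comparisons, with bars of 1 probe error (pooled SD between probes of a gene, divided by the square root of the number of probes). Dashed lines mark 2-fold. The Ddc points lie at -5.59, -3.04 and -2.55, and the Chga bars cross 0 in every comparison.

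The differences were also set against each other. Tph1 and Ghrl were 0.04 apart between top villus and crypt, against a probe error of 1.29 for 2 genes with 1 probe each. Tph1 exceeded Chga by 1.43 and Ghrl exceeded it by 1.39, which are 1.11 and 1.07 times that error, so the higher readings of Tph1 and Ghrl were not separated from that of Chga. The Tph1 difference minus that of Ddc was 7.46. The Ddc difference minus that of Ghrl was -7.42 and minus that of Chga -6.03, the latter being 5.38 times its error.

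Of 2528 genes measured in all 3 parts, 22.9% were higher at both steps from crypt to top, as Tph1, Ghrl and Chga were, and 27.5% were lower at both, as Ddc was. A step of 2-fold or more downwards on both sides of the middle villus, as in Ddc, was found in 4.79%. The genes with the profile most like each member were found by the Euclidean distance between the 3 log2 values, each centred on the gene's own mean. Nearest to Ddc were Rps19 (a distance of 0.32), Snrpf (0.42), Atad3a (0.44), Dctpp1 (0.63) and Hspe1 (0.66), and 3 genes lay within 0.5 of it. These are a ribosomal protein, a splicing protein, a mitochondrial ATPase, a nucleotide pyrophosphatase and a mitochondrial chaperonin. Nearest to Tph1 were Cavin3 (0.03), Plxnd1 (0.07), Avp (0.11), Slc22a23 (0.12) and Wwp2 (0.12). Nearest to Ghrl were Csk (0.04), Peli1 (0.04), Tmbim4 (0.07), Alas1 (0.07) and Cst3 (0.07), and nearest to Chga were Prelid1 (0.04), Rheb (0.04), Rtcb (0.05), Psma6 (0.05) and Unc45a (0.05). Within 0.5 lay 137 genes for Tph1, 178 for Ghrl and 322 for Chga, so these profiles are shared by many genes. Under quantile normalization all 5 genes named for Ddc were again its nearest and 2 of those for Ghrl, Peli1 and Tmbim4, but 0 of those for Tph1 and 0 of those for Chga. With 3 points a profile holds little information, and the nearness is a description.

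**Figure D3:**
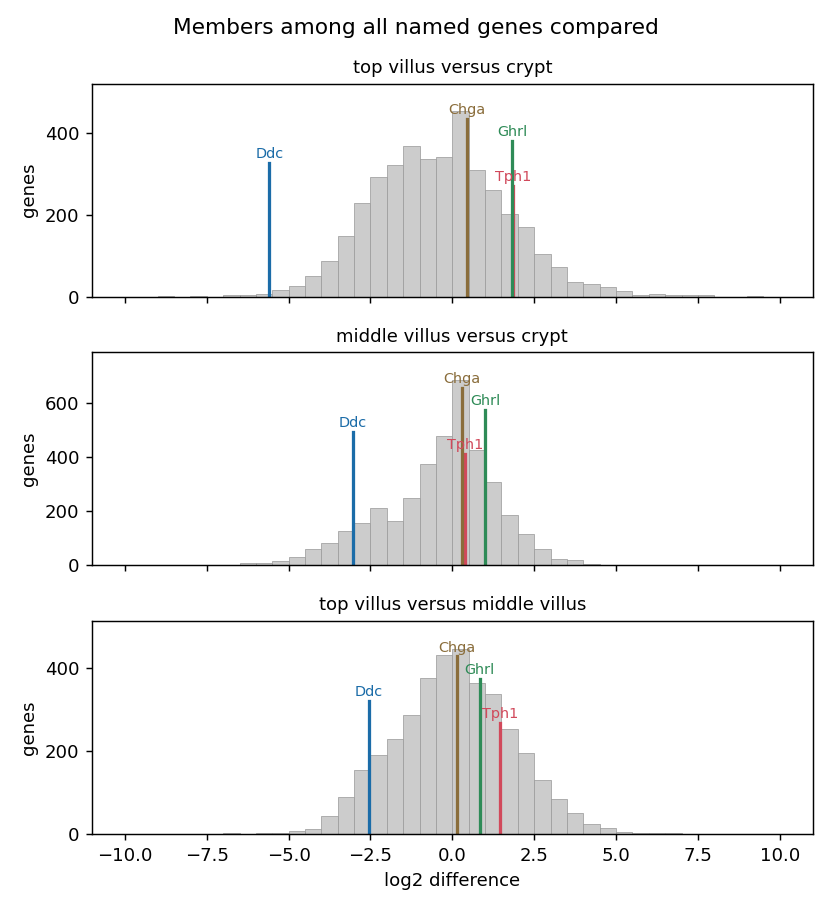
Number of named genes (vertical axis) by log2 difference in bins of 0.5 (horizontal axis) for the 3 comparisons, with the 4 members as coloured lines whose heights have no meaning. Genes dim in 1 part enter at their bound. Ddc lies in the lower tail between top villus and crypt, with at least 13 genes more negative, and Chga lies near the centre in each panel.

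The genes of amine synthesis and breakdown were read from a list of 31 that includes Tph1 and Ddc, of which 14 were on the table. Of 12 genes compared between top villus and crypt, 5 were lower and 2 higher, beside 39.5% lower and 23.9% higher among all genes. Ddc was 1 of the 5 lower genes and Tph1 was 1 of the 2 higher. The list median was -0.86 against -0.39 for all genes. Gch1, GTP cyclohydrolase 1, which starts the synthesis of tetrahydrobiopterin, read 10.20 in crypt, 9.57 in middle villus and 14.41 at the top. It was highest at the top, with a difference of 4.21 from crypt and 4.85 from middle villus. Gchfr, the regulatory protein of that enzyme, peaked in the middle, at 9.65, 11.46 and 10.00 in the order crypt, middle, top. Spr, sepiapterin reductase, which completes the cofactor, was dim in crypt and middle villus and read 6.42 at the top. Its crypt reading of 5.97 lay just under the dim level of 6.05, and the bound between top and crypt was 0.38 (1.30-fold). Qdpr, which regenerates the cofactor after use, was lowest at the top, at 12.47, 13.24 and 10.08.

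Of the other genes that take up or break down amines, 3 were lower at the top than in crypt by 2-fold or more, Maoa, Hnmt and Aldh9a1, and Slc6a4, Aoc1 and Aldh2 stayed within 2-fold. Among all genes 39.5% were lower in this comparison. Slc6a4, the serotonin transporter that takes released serotonin into cells, read 8.46 in crypt, 9.14 in middle villus and 7.51 at the top. It was within 2-fold between top and crypt, at -0.95, and past it between top and middle, at -1.63. Maoa, monoamine oxidase A, which degrades serotonin, read 8.92 and 8.48 in crypt and middle villus and was dim at the top. There it was at least 13.7-fold lower than in crypt and at least 10.1-fold lower than in the middle. Hnmt, histamine N-methyltransferase, read 10.12, 9.94 and 5.59, a difference of -4.53 between top and crypt. Aldh9a1, which oxidises aminoaldehydes, was at least 3.09-fold lower at the top than in crypt and 3.53-fold higher in the middle. The diamine oxidase Aoc1 and the aldehyde dehydrogenase Aldh2 stayed within 2-fold of crypt in both villus parts. Hdc, which makes histamine, and Akr1b1 were dim in all parts.

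Between middle villus and crypt the same list had 2 of 11 genes higher, Gchfr and Aldh9a1, and 1 lower, Ddc (median 0.40, against -0.08 for all genes, of which 19.1% were higher and 29.5% lower). Between top and middle villus 3 of 12 were higher, Tph1, Gch1 and Spr, and 8 were lower (median -1.54, against 0 for all genes, of which 29.5% were higher and 27.4% lower). The 8 were Ddc, Gchfr, Qdpr, Slc6a4, Maoa, Aoc1, Hnmt and Aldh9a1. Tph1 and Ddc, consecutive enzymes of serotonin synthesis, are thus on opposite sides of the list in the comparisons that involve the top.

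Genes of uptake and use of the aromatic amino acids had 6 of 9 compared lower at the top than in crypt and 1 higher (median -1.40). The shares over all genes were 39.5% and 23.9%, and the median -0.39. Slc7a8, a basolateral carrier of neutral amino acids, read 11.42 in crypt, 13.45 in middle villus and 10.29 at the top. Its partner chain Slc3a2 had the same shape, at 8.71, 9.83 and 7.32. Slc16a10, which carries tryptophan and tyrosine across the basolateral membrane, was dim in crypt and read 8.54 and 7.17. Of 10 genes compared 4 were higher and 2 lower in the middle villus than in crypt (median 0.29), beside 19.1% and 29.5% of all genes. At the top 7 of 10 were lower and none higher than in the middle (median -1.33), beside 27.4% and 29.5% of all genes. The tRNA synthetases for tryptophan and tyrosine, Wars1 and Yars1, differed by -1.73 and -3.82 between top and crypt.

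**Figure D4:**
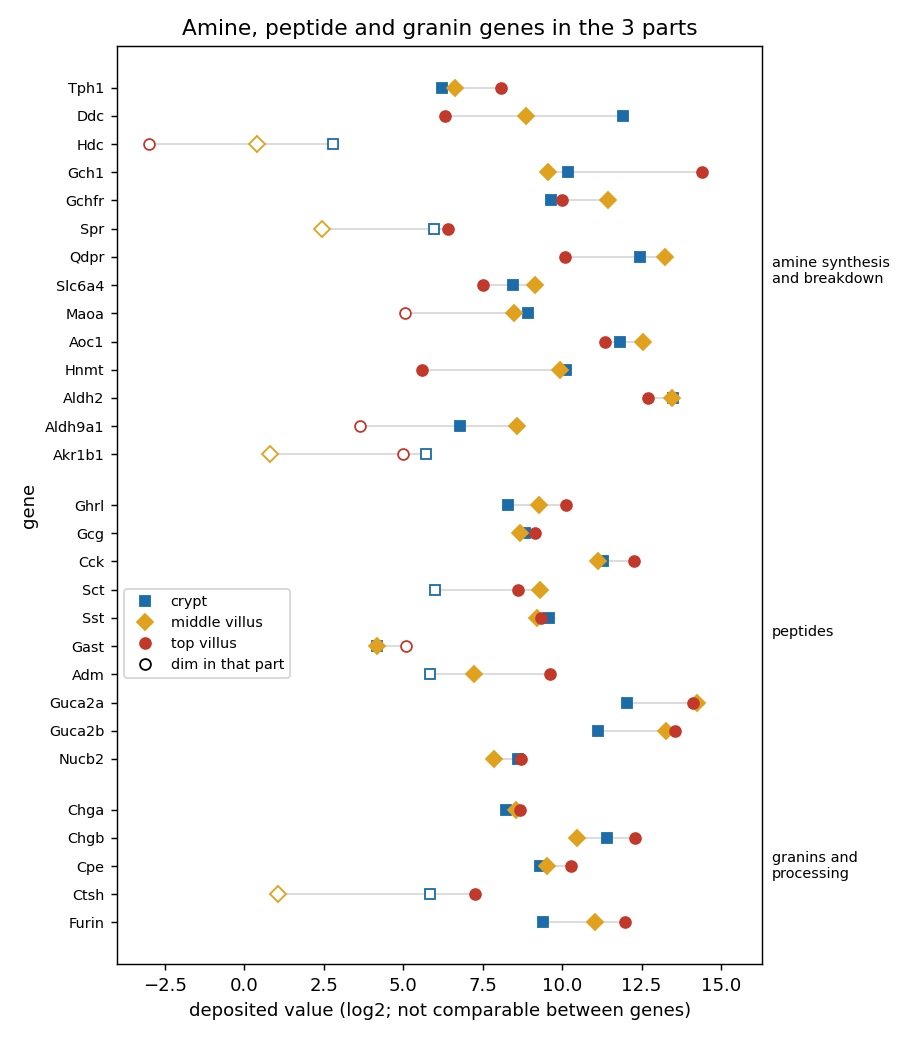
Deposited log2 values (horizontal axis) in crypt (squares), middle villus (diamonds) and top villus (circles) for the genes of the amine, peptide and granin lists on the table (vertical axis), with open symbols where the value was dim. Gch1 stands at 14.41 at the top against 10.20 in crypt, while Ddc, Qdpr, Maoa and Hnmt have their lowest symbol at the top.

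Ghrl was then read within a list of 25 peptides and hormone precursors that includes it, of which 10 were on the table. Between top villus and crypt 5 of 9 were higher and none lower (median 1.83). Ghrl itself was 1 of these 5, and its difference was the list median. Among all genes 23.9% were higher and 39.5% lower, and the median was -0.39. Gcg, the proglucagon gene of L cells, read 8.82 in crypt, 8.67 in middle villus and 9.15 at the top. Sst, somatostatin, read 9.60, 9.20 and 9.35. Gcg and Sst therefore held a level within 2-fold through the column. Cck, cholecystokinin, read 11.29, 11.13 and 12.27, which is 0.99 between top and crypt and 1.14 between top and middle. Sct, secretin, was dim in crypt at 5.99 and read 9.30 in middle and 8.60 in top villus, at least 9.56-fold and 5.88-fold higher than in crypt. Its crypt reading lay just under the dim level of 6.05.

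The other higher members of that list act differently from the classical hormones. Guca2a and Guca2b, guanylin and uroguanylin, are ligands of the epithelial receptor guanylate cyclase C and act within the gut wall and lumen. They read 12.04, 14.25 and 14.12, and 11.13, 13.26 and 13.55. Both were higher in the 2 villus parts than in crypt, by 2.08 and 2.41 at the top. Gucy2c, their receptor, was highest at the top like Guca2b, whereas Guca2a was highest in the middle, and all 3 were within 2-fold between the villus parts. Gucy2c read 8.51, 10.54 and 11.29. Adm, adrenomedullin, a vasoactive peptide of many cell types, was at least 11.8-fold higher at the top than in crypt. Gast, gastrin, was dim in crypt and at the top and lay at the dim level in the middle. Between middle villus and crypt 4 of 10 genes were higher, Sct, Adm, Guca2a and Guca2b, and none lower (median 0.50). The shares over all genes were 19.1% and 29.5%. Between top and middle villus 2 of 10 were higher, Cck and Adm, and none lower (median 0.38), beside 29.5% and 27.4% of all genes.

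Chga had 1 other granin beside it. Chgb, chromogranin B, read 11.41 in crypt, 10.46 in middle villus and 12.28 at the top, so it was lowest in the middle villus, unlike Chga. The Chgb difference was 0.87 between top and crypt and 1.82 between top and middle. Cpe, carboxypeptidase E, which trims prohormones, read 9.29, 9.52 and 10.29 and was 1.997-fold higher at the top than in crypt, just inside the limit. Furin, a proprotein convertase of most cells, read 9.39, 11.04 and 11.97, a difference of 2.58 between top and crypt. On this list, which includes Chga, 2 of 5 genes compared were higher at the top than in crypt, Furin and the protease Ctsh. None was lower and the median was 1.00, beside 23.9% higher, 39.5% lower and a median of -0.39 over all genes. The counts of higher genes were 1 of 4 between middle and crypt (Furin, median 0.26) and 2 of 5 between top and middle (Chgb and Ctsh, median 0.93). Among all genes 19.1% and 29.5% were higher in these comparisons.

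Of 30 transcription factors of endocrine differentiation 6 were on the table. None was higher at the top than in crypt and 1 was lower, Foxa2, by at least 5.70-fold (median -0.63, with 23.9% higher, 39.5% lower and a median of -0.39 over all genes). With quantile normalization, median scaling, no floor, a floor of log2 5, dim below the lowest 10% or a limit of 1.5-fold, 1 of them was higher. Foxa2, a forkhead factor of gut endoderm, read 7.66 in crypt and 4.91 in middle villus and was dim at the top. Hes1, the Notch target that represses secretory fate, read 9.47, 7.14 and 8.65. Pdx1 and Sox4 stayed within 2-fold in all comparisons. In the middle villus 2 of 5 were lower than in crypt, Foxa2 and Hes1, and none higher (median -0.67). Between top and middle villus 2 of 6 were higher, Hhex and Hes1, and 1 was lower, Gata4 (median 0.27). Among all genes 19.1% were higher and 29.5% lower in the middle against crypt, and 29.5% and 27.4% at the top against the middle.

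The remaining lists held few genes on the table. Their counts are given between top villus and crypt, where 39.5% of all genes were lower and 23.9% higher (median -0.39). A list of decarboxylases and enzymes linked to pyridoxal phosphate, the cofactor of Ddc, had 8 genes on the table. Not all of them use this cofactor, and Amd1 does not. Of the 8 genes, 7 were compared between top villus and crypt, and 3 were lower and 2 higher (median -0.66). The lower ones were Amd1, which makes decarboxylated S-adenosylmethionine for polyamines, Shmt1 and Oat, ornithine aminotransferase, which read 13.91, 12.74 and 10.81. Oat and Amd1, at 10.93, 9.89 and 8.08, descended at both steps by 2-fold or more, as Ddc did. Of 5 hormone and amine receptors compared, Gucy2c and Hrh3, a histamine receptor, were higher and none lower. Among nutrient sensing genes the fatty acid receptor Ffar4 stayed within 2-fold between top and crypt, at 0.67, and the peptide transporter Slc15a1 was higher by 3.90. Of 2 genes of regulated secretion, Syt5, a synaptotagmin, was at least 3.71-fold higher and Resp18 was within 2-fold. Of 6 enterocyte transcription factors 3 were higher and 2 lower.

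Markers of other cells that could carry these transcripts were read beside the members. Over all genes, 23.9% were higher and 39.5% lower at the top than in crypt. These shares were 19.1% and 29.5% for middle villus against crypt, and 29.5% and 27.4% for top against middle villus. Tph1 is also made by mast cells. The summed linear level of the 5 mast cell markers on the table was 3027 in crypt, 2644 in middle villus and 780.1 at the top, where Tph1 was highest. Mcpt1 alone made up 88.1%, 78.5% and 60.7% of these sums. It differed by -2.49 between top and crypt and Cpa3 was at least 6.44-fold lower, while Srgn, which other blood cells also express, was at least 4.41-fold higher. Hdc was dim in all parts. Between middle villus and crypt 2 of 4 mast cell markers compared were higher, Cma1 and Srgn, both at a bound, and none lower (median 0.38). Between top and middle villus 3 of 4 were lower and none higher (median -2.07). The part of mast cells in the Tph1 result was not tested. For Ddc, the summed level of the 14 enterocyte markers was 9332, 179444 and 197657, a sum carried by a few very bright genes such as Apoa1, Fabp1 and Fabp2. Gene by gene, 9 of 13 were higher and 2 lower at the top than in crypt (median 3.90). Between top and middle villus 4 of 14 were higher and 5 lower, near the shares over all genes. The 4 higher were Lct, Alpi, Apoa4 and Slc15a1, Apoa4 by 15.6-fold. The 5 lower, in the direction of Ddc, were Si, Anpep, Slc5a1, Slc2a2 and Dpp4, Si by at least 55.7-fold and Slc2a2 by 110-fold. The summed level of the 7 proliferation markers was 7503, 242.7 and 222.7, in the direction of Ddc from crypt to villus. Between top and middle villus 2 of 4 compared were higher and 1 lower (median 0.61, 3 at a bound), where Ddc differed by -2.55. Plasma and B cell markers summed to 5919, 12977 and 50.3, with 3 of 3 lower at the top than in crypt, Jchain by 114-fold. In the middle villus 1 of these was higher and 1 lower than in crypt. The part of any of these cell groups in the Ddc result was not tested. Smooth muscle markers summed to 6312, 5592 and 7006 and goblet cell markers to 17466, 17270.1 and 17396, so these sums moved little along the column, although the goblet cell gene Clca1 was at least 57.4-fold lower at the top than in crypt. Paneth cell markers summed to 2836, 1363 and 1485, with 1 of 3 lower at the top than in crypt. Of 3 tuft cell markers Ltc4s was at least 3.29-fold higher at the top than in crypt, Alox5ap was dim in all parts and Hpgds measured at the top alone, and their part in the Tph1 and Ghrl results was not tested. No listed marker of neurons, glia, platelets or red cells was on the table, and their part was not tested.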

How the data were processed

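Expression was measured by microarray in 3 samples of rat jejunum, 1 for each part that the labels name. RNA was extracted on silica columns and amplified and labelled with Cy3 and Cy5, per the labels' protocols. The deposited values of 6653 probes are on what was read as a log2 scale (highest 15.997). For these, normalization and channel are not given in the sources used here. Scanner output (3 files) was not used, because their spots carry no probe name and no header names a part. In the platform annotation 4820 probes have 1 gene symbol, 0 have several and 1833 are unnamed. RefSeq (GRCr8) held 4806 of these by Entrez ID and changed 0 symbols. The top villus column has 13 empty cells, left out. Arrays have no read depth, and their number limits the precision.

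A probe was compared when not dim in at least 1 part. A dim value was set to the dim level, which gives a bound ("at least") that may not pass 0. Several probes of a gene were averaged. The fixed rule of size was 2-fold. The steps were tested on simulated data. Genes named are the 4 members, genes of lists and the 5 nearest in profile to each member. Members and lists were chosen with earlier results of these data known. Alternatives were quantile normalization, median and 75th percentile scaling, no floor, floors of log2 5 and 6, dim below the lowest 10%, the brightest probe, and limits of 1.5-fold and 4-fold. Python 3.11.15, pandas 2.3.3 and numpy 2.4.6 were used.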

Additional observations from a re-analysis of the deposited data

How the results depend on the processing

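Each member's log2 difference was recomputed under 8 alternatives in 3 comparisons. Of these 96 values 94 moved by less than 1 probe SD and 0 called differences changed sign. The exceptions were Tph1 under quantile normalization, at 2.88 between top villus and crypt and 1.42 between middle villus and crypt. Its crypt value lay just above the dim level, and the cause was not tested. The 94 include values that could not move. No member probe was dim, so no floor, a floor of log2 5 and the lower dim level left every member value unchanged. A floor of log2 6 and the brightest probe could change Ddc alone. For Tph1, Ghrl and Chga only quantile normalization and the median and 75th percentile scalings were a test. Ddc ranged from -5.60 to -5.35 between top villus and crypt and Ghrl from 1.83 to 2.07. Median scaling took the median of all genes in that comparison from -0.39 to -0.15, and quantile normalization took it to -0.19.

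With members as the count, 1 was higher between middle villus and crypt under quantile normalization and at 1.5-fold. The share of all genes higher there was 24.5% under quantile normalization, against 19.1% as deposited. Between top and middle villus 2 members were higher under median scaling and at 1.5-fold. The share of all genes there was 34.5% under median scaling, against 29.5% as deposited. At 4-fold 0 members were higher at the top than in crypt and 0 than in the middle. Under quantile normalization 7 of the 20 nearest genes were again among the nearest, 5 for Ddc, 2 for Ghrl and 0 each for Tph1 and Chga. The other counts that moved by over 1.5 times were those of the lists. At the top against crypt, 1 transcription factor was higher under quantile normalization, median scaling, no floor, a floor of log2 5, dim below the lowest 10% and 1.5-fold. There 2 were lower with the brightest probe and 3 at 1.5-fold. At the top against the middle, 1 was higher with a floor of log2 6 and at 4-fold, and 2 were lower with no floor and with the lowest 10%, and 0 at 4-fold. In the middle against crypt, 1 was higher at 1.5-fold.

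For granins and processing, 4 genes were higher at the top than in crypt, and 4 than in the middle, under median scaling and at 1.5-fold. At 4-fold these counts were 1 and 1, with 0 for the middle against crypt, where 1 gene was lower with no floor, with the lowest 10% and at 1.5-fold. For peptides, 4 were higher at the top than in the middle under median scaling and at 1.5-fold and 1 at 4-fold. At 1.5-fold 1 was lower there and 1 in the middle against crypt. For amine genes in the middle against crypt, 4 were lower with no floor, 3 with the lowest 10% and 2 at 1.5-fold, and 5 were higher at 1.5-fold and 0 at 4-fold. At 4-fold 1 was higher at the top than in crypt and 5 were lower at the top than in the middle. For aromatic amino acid genes at 4-fold, 0 were higher and 1 lower at the top than in crypt, 2 higher and 0 lower in the middle than in crypt, and 4 lower at the top than in the middle. Over all named genes, 4-fold gave 477 higher and 866 lower for top against crypt, 234 and 714 for middle against crypt, and 519 and 515 for top against middle. No paired analysis was possible because each part had 1 sample, and leaving out a sample would remove a part. Signal near the dim level limits Tph1 in crypt and the first Ddc probe at the top.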
